A study of Mus musculus with 2 samples.

Results

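C1q-positive macrophages are the resident macrophages of the pancreatic islet, and 643 of 15081 deposited cell barcodes met the definition used here. A barcode was counted as a C1q-positive macrophage when it had at least 500 detected genes and at most 10% mitochondrial unique molecular identifiers (UMIs, each standing for 1 captured RNA molecule), when C1qa, C1qb and C1qc together made up at least 0.3% of its UMIs, and when 7 islet hormone genes took under 10%. The sum of Dcn, Lum and Clec3b (stromal genes) and the sum of Plvap, Esm1, Emcn, Flt1 and Kdr (endothelial genes) each had to stay under 0.3%. The members were thus chosen by their measured UMIs, above all those of the 3 C1q genes. They numbered 194 of 7100 kept barcodes in the WT library and 449 of 6346 in the GKO library.

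The study asked how loss of ghrelin, the appetite-regulating hormone of the stomach, alters the islet. Islets were pooled from 4 mice per genotype, either homozygous ghrelin-knockout (GKO) mice or their WT littermates, all on the C57BL/6N background, 8 weeks old and fed chow freely. Islet cells were dispersed, sorted for viable single cells and sequenced by droplet 3′ RNA sequencing as 1 library per genotype. With 1 library a group there is no replicate, so no test between genotypes was possible. The intervals given are 95% counting intervals (exact binomial for shares, exact for the ratio of 2 Poisson counts for levels), they cover counting error only, and genotype cannot be told apart from the animal pool, the islet isolation or the library.

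Macrophages of the islet lie along its capillaries, depend on signalling through the receptor Csf1r, present antigen on MHC class II and take up material released by β cells. In many tissues resident macrophages come in a form with high MHC class II and a form that carries the mannose receptor CD206 (Mrc1), often with Lyve1 and Folr2, which is typically perivascular. C1q, the recognition molecule of the classical complement pathway, is assembled from the products of C1qa, C1qb and C1qc, which lie side by side on the minus strand of chromosome 4 (mm10, 136895917 to 136898803, 136880129 to 136886187 and 136889804 to 136893065).

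The 0.3% limit fell in a gap. Among barcodes that passed every other limit, 404 of 660 in WT and 636 of 1161 in GKO held no C1q UMI at all. Only 1 barcode in each library lay between 0.2% and 0.3%, and 1 in WT and 3 in GKO lay between 0.3% and 0.4%. The lowest C1q share inside the limit was 0.348% in WT and 0.304% in GKO, and the highest outside was 0.296% and 0.272%. The median share of the members was 1.37% in WT and 1.55% in GKO. These values chose the cells and are given as a description.

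**Figure D1:**
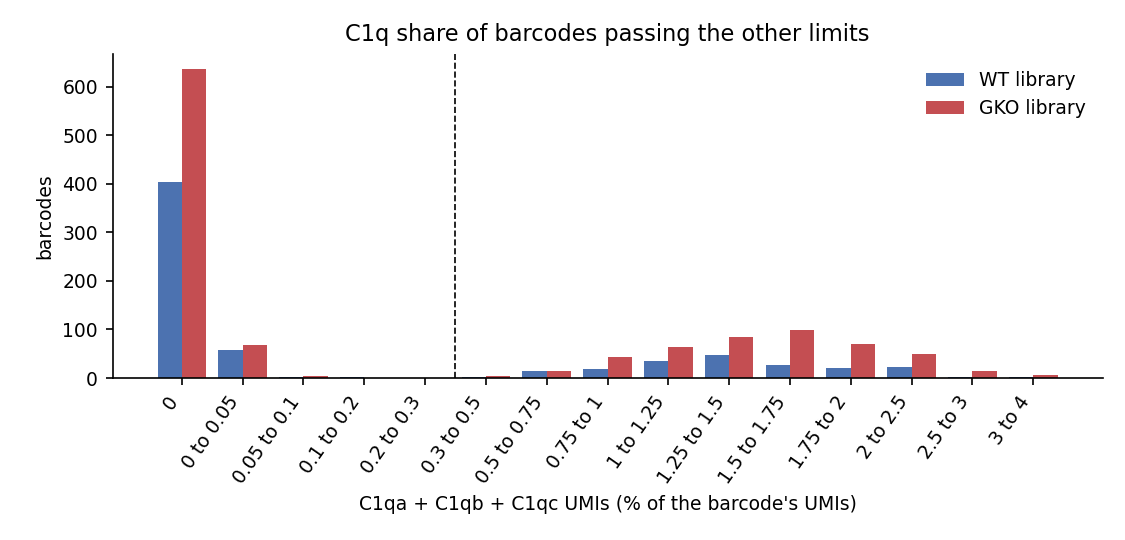
Number of barcodes (y axis) by the share of their UMIs from C1qa, C1qb and C1qc (x axis, percent, unequal bins) among barcodes that passed the limits on genes, mitochondrial, hormone, stromal and endothelial UMIs. Blue bars are the WT library and red bars the GKO library, and the dashed line marks the 0.3% limit, which stands in a nearly empty stretch between barcodes without C1q and a broad peak above 0.5%.

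The members were sequenced to similar depth in both libraries. WT members held 2182461 UMIs in all, with a median of 10268.5 UMIs per cell (2669 to 38821), and GKO members 4438577, with a median of 8887 (975 to 48589). The whole libraries held 158067110 and 103511757 UMIs. The median member had 2.35% mitochondrial UMIs in WT and 2.97% in GKO, and hormone transcripts took a median of 0.783% and 0.756%. The libraries had 18 cell barcodes in common, and 1 member of each library had a barcode that was also in the other, but no barcode was a member in both.

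The macrophage label held in both libraries. Ctss, which encodes cathepsin S, the protease that frees MHC class II of its chaperone, stood at 3564 CPM (UMIs of a gene per 1000000 UMIs of the cells summed) in WT and 3341 in GKO. Csf1r, the receptor for CSF1, stood at 557.6 and 629.7 CPM, Adgre1 (F4/80) at 282.3 and 403.3, and Lyz2 (lysozyme) at 6366 and 8293.  In the hormone-rich barcodes (10% or more hormone UMIs) the same Csf1r stood at 1.90 and 3.34 CPM. The markers Mrc1 and Pf4 were found in only part of the members. With each cell thinned to 2000 UMIs, Mrc1 was seen in 23.2% of WT and 38.8% of GKO members, and Pf4 in 28.35% and 44.17%. In hormone-rich barcodes thinned alike, Mrc1 was seen in 0.161% and 0.318% and Pf4 in 0.304% and 0.514%.

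Markers of other blood cells ranged from no UMI to a low level. The monocyte genes Ly6c2 and Chil3 had 13 and 0 UMIs in WT and 2 and 2 in GKO, while Ccr2 was seen in 5.16% and 7.62% of members thinned to 2000 UMIs (0.0537% and 0.049% of hormone-rich barcodes), and the list of 10 genes summed to 164.0 and 123.0 CPM, led by Fn1 (69.7 CPM) in WT and Ccr2 (70.3 CPM) in GKO. The neutrophil genes Retnlg, Ngp, Camp, Ly6g and Mmp8 had no UMI in either library, and Csf3r, the most abundant gene of that list, stood at 27.0 and 27.3 CPM of a sum of 32.1 and 29.1. The lymphoid lists were small as well. Of the dendritic cell genes, Flt3 had 1 and 4 UMIs and Itgae none, while Siglech, a lectin also known from microglia, was the most abundant in WT (65.5 and 51.1 CPM) and Batf3 in GKO (61.5 CPM), and the list summed to 138.4 and 152.5 CPM. Of the T and NK genes, Cd3e, Cd3d and Cd3g had no UMI in WT and 8, 17 and 8 in GKO, and Il7r was the most abundant (27.0 and 27.9 CPM of a sum of 45.8 and 63.5). The B cell list summed to 150.3 CPM in WT, where 1 cell held 75.9% of its UMIs, and 34.7 CPM in GKO, and Cd79b, its most abundant gene, stood at 48.1 and 27.3 CPM. The mast cell list had 5 UMIs in WT, all from Kit, and none in GKO.

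Markers of the islet's other cells were present in both libraries. The endocrine list was the largest and summed to 11423.8 CPM in WT and 9670 in GKO, led by Ins2 at 4290 and 3881 CPM, and 5 of its 15 genes were at least 1.5-fold lower in GKO, beside 3.75% of all 4663 genes tested. The acinar list, the exocrine cells around the islet, summed to 620.4 and 806.3 CPM, with Ctrb1 at 134.3 and 137.2, and 3 of 12 tested genes were at least 1.5-fold higher, beside 5.53% of all genes tested. Fibroblast and pericyte genes summed to 196.6 and 267.9 CPM, led by Gsn (140.2 and 136.8 CPM). Of their 2 tested genes Rgs5, a pericyte gene, was higher, at 9.62 CPM in WT and 63.1 in GKO (log2 ratio 2.71, 2.07 to 3.43), named after its values were seen. In each library 1 cell held 22.6% (WT) and 21.6% (GKO) of this list's UMIs. Endothelial genes summed to 21.5 and 18.7, led by Egfl7 (4.58 and 4.28), ductal genes to 32.5 and 38.8, of which Krt8 gave 5.04 and 15.1 (68.7% of its GKO UMIs in 1 cell), and glial genes to 4.12 and 2.70, led by Fabp7 (2.75 and 2.25). Red cell genes had 1 UMI in WT and 105 in GKO, all of them in 1 cell, with Hbb-bs at 0.458 and 14.6 CPM. The part of these transcripts in the results was not tested.

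The deleted gene checked the library labels. In the hormone-rich barcodes Ghrl stood at 56.9 CPM in WT (7957 UMIs) and 0.0499 CPM in GKO (4 UMIs). In the C1q-positive macrophages it had 14 UMIs in WT (6.42 CPM) and none in GKO, which allows up to 0.676 CPM (3 UMIs). The ghrelin receptor gene Ghsr had 2 UMIs in WT members and none in GKO members, which allows up to 0.676 CPM, and Mboat4, the enzyme that acylates ghrelin, had none in either, which allows up to 1.37 and 0.676 CPM. Ghsr was thus not detectable above this limit in GKO macrophages.

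C1q-positive macrophages took a larger share of the GKO library. In WT they made up 2.73% of kept barcodes (2.37 to 3.14%), and their share in the GKO library was 7.08% (6.46 to 7.73%), a log2 ratio of 1.37 (1.13 to 1.62). Counted only among barcodes with under 10% hormone UMIs, they were 12.9% (11.3 to 14.7%) and 19.9% (18.2 to 21.6%), a log2 ratio of 0.62 (0.37 to 0.87). Shares of one library move together, and the number of endocrine cells recovered enters the first ratio. The hormone-rich barcodes numbered 5598 in WT and 4085 in GKO. A larger GKO share was not confined to the macrophages. Stromal-rich barcodes numbered 264 of 7100 kept barcodes in WT and 654 of 6346 in GKO. C1q-low antigen-presenting barcodes (defined below) numbered 33 and 69. Endothelial-rich barcodes went the other way, at 573 and 435. Whether the macrophage share moved differently from these was not tested.

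Gene by gene, the UMIs of all members were summed in each library, and 4663 genes with a mean of at least 20 CPM over the 2 libraries were compared. Here a gene is called higher or lower when its CPM differed at least 1.5-fold, which describes the 2 libraries and is not a test. By this rule 258 genes (5.53%) were higher in GKO and 175 (3.75%) lower, and the median log2 ratio was 0.09, with 5% of genes under -0.52 and 5% above 0.60. Of all these calls, 59.6% were higher, against 42.8% when trimmed-mean (TMM) factors set the scale, which lowered every log2 ratio by 0.07. In the macrophage identity list 3 of 22 tested genes were higher and none lower: Pf4, Mrc1 and Itgam (CD11b), which stood at 27.0 and 55.2 CPM (1.03, 0.61 to 1.46).

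**Figure D2:**
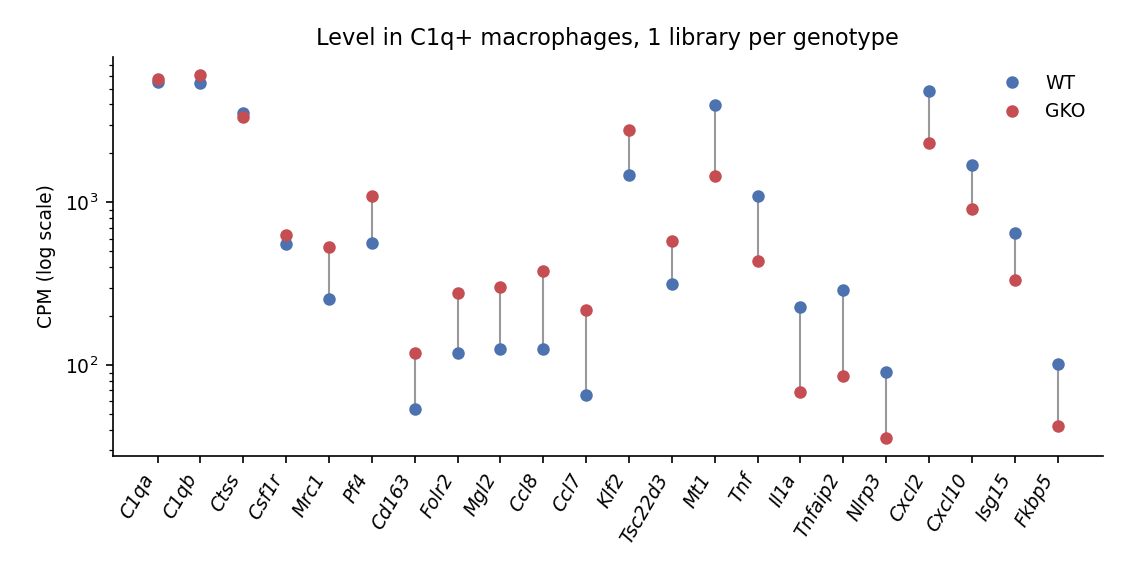
Level of 22 genes in the C1q-positive macrophages (y axis, CPM of summed UMIs, log scale), with the WT library in blue and the GKO library in red, joined by a line for each gene. The C1q genes, Ctss and Csf1r had nearly the same level in both, the genes from Mrc1 to Tsc22d3 were higher in GKO, and Mt1 to Fkbp5 were lower.

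The clearest shift upward was in the list of CD206-type genes. Where the cells lay in the islet was not measured. Mrc1, the mannose receptor, stood at 253.8 CPM in WT and 529.4 in GKO, a log2 ratio of 1.06 (0.93 to 1.20). Pf4, a platelet factor also made by resident macrophages, stood at 559.9 and 1102 CPM, a log2 ratio of 0.98 (0.89 to 1.07). Both levels were higher in the GKO library, and neither gene entered the definition of the members. Of the 15 genes of the list, all 15 passed the level filter, 14 were higher in GKO and none lower, beside 5.53% and 3.75% of all genes, with a median log2 ratio of 1.05 beside 0.09 over all genes tested. Together they made 2784 CPM in WT and 5515 CPM in GKO.

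Log2 ratios of the list's members ran from 0.40 to 1.59. The folate receptor gene Folr2 stood at 119.6 CPM in WT and 276.7 in GKO, a log2 ratio of 1.21 (1.02 to 1.41). Cd163, the receptor that clears haemoglobin bound to haptoglobin, stood at 54.1 and 118.3 CPM (1.13, 0.84 to 1.43), and the C-type lectin gene Mgl2 at 126.0 and 301.0 (1.26, 1.07 to 1.45). The chemokine gene Ccl8 had the largest ratio of the list, from 126.5 to 381.2 CPM (1.59, 1.41 to 1.78), with 19.6% of its WT UMIs and 16.9% of its GKO UMIs in 1 cell. Sepp1, which encodes the selenium carrier selenoprotein P, was the most abundant, at 821.5 and 1543 CPM (0.91, 0.83 to 0.99). The only member under 1.5-fold was Lyve1, the hyaluronan receptor, at 114.5 and 151.6 CPM, a log2 ratio of 0.40 (0.19 to 0.62).

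Lists that share members with it moved less. For the uptake of dead cells 6 of 15 tested genes were higher (5.53% over all genes) and none lower, and 4 of the 6 (Gas6, Timd4, Stab1, Cd163) are also in the CD206-type list, as is Mrc1, so only Lrp1 was outside it. Gas6, the bridging ligand for the TAM receptors, stood at 57.3 and 131.1 CPM (1.20, 0.91 to 1.49), and Timd4, a receptor for phosphatidylserine, at 28.0 and 55.6 (0.99, 0.58 to 1.42). Tyrobp, the signalling adaptor of Trem2, was the most abundant of that list and stood at 2583 and 2707 CPM (0.07, 0.02 to 0.11). Of 12 tested genes of iron and heme, 4 were higher, beside 5.53% of all genes, among them the ferroxidase gene Cp (23.8 and 60.2 CPM, 1.34, 0.90 to 1.79) and Slc40a1, the iron exporter ferroportin (14.7 and 32.0 CPM, 1.13, 0.56 to 1.73), and Trf, transferrin (323.0 and 515.7, 0.67, 0.55 to 0.80). Fth1, the ferritin heavy chain, hardly differed at 19608.1 and 19893.8 CPM (0.02, 0.00 to 0.04).

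The receptors of the C-type lectin and chemokine families held a few higher genes. Clec4b1, Clec4a1 and Clec12a were the 3 higher of 16 tested Fc and C-type lectin receptors (5.53% over all genes), at 21.99 and 57.2 CPM (1.38, 0.93 to 1.86), 43.5 and 80.7 (0.89, 0.56 to 1.23) and 79.7 and 140.4 (0.82, 0.57 to 1.07), while none was lower, and 1 cell held 31.2% of the WT UMIs of Clec4b1. Fcer1g, the signalling chain of several activating Fc receptors and the most abundant gene of the list, stood at 2273 and 2630 CPM (0.21, 0.16 to 0.26). Among 14 tested chemokine and purine receptors, 3 were higher and none lower, beside 5.53% and 3.75% of all genes, among them Gpr34 (33.0 and 62.4 CPM, 0.92, 0.54 to 1.31) and Ccr2, the receptor that monocytes use to leave the marrow (46.7 and 70.3 CPM, 0.59, 0.26 to 0.93). Cx3cr1, the fractalkine receptor, was the most abundant of them at 184.7 and 261.3 CPM (0.50, 0.34 to 0.67).

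**Figure D3:**
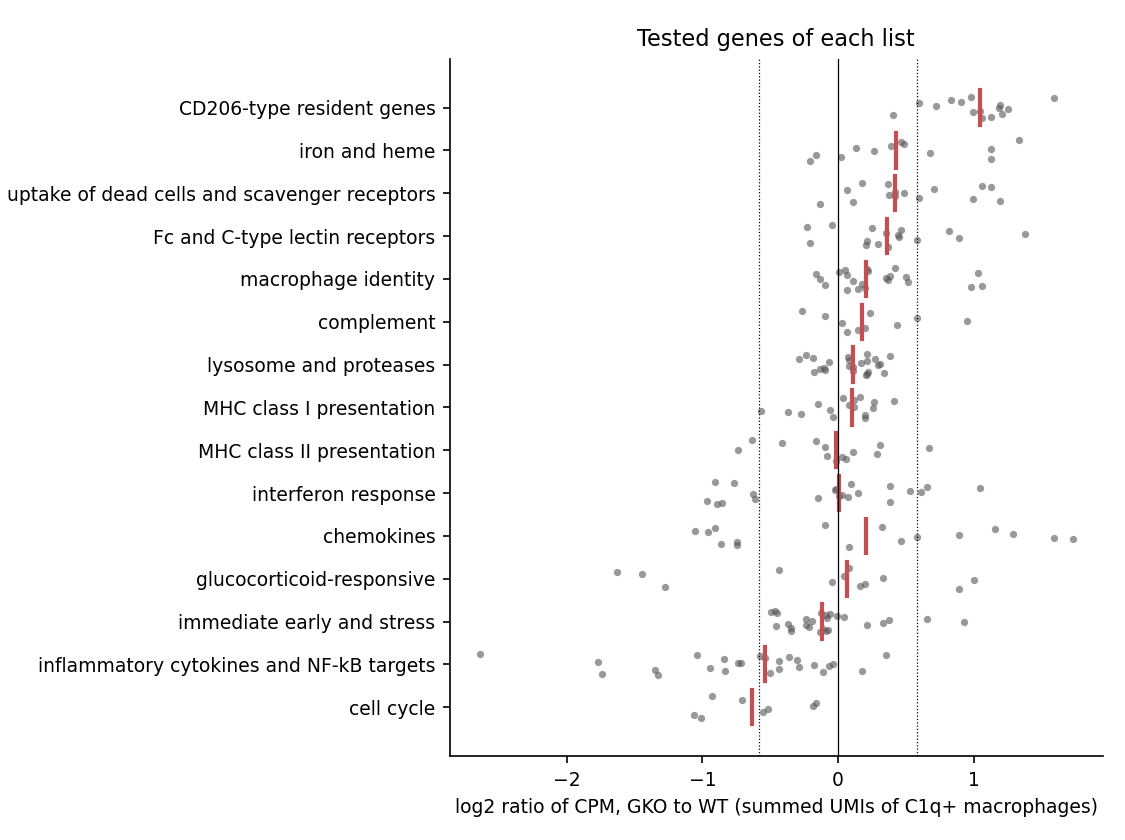
Log2 ratio of CPM, GKO to WT (x axis), of every tested gene (grey points) in 15 gene lists, with the list median as a red bar, a line at 0 and dotted lines at 1.5-fold. The CD206-type list lies almost wholly to the right of the dotted line with a median of 1.05, the inflammatory list mostly to the left of 0 with a median of -0.54, and chemokines and interferon genes spread to both sides.

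The inflammatory genes and NF-κB targets went the other way. NF-κB is the transcription factor that drives the early cytokine response of macrophages and also induces its own inhibitors. Of 29 genes in this list 25 passed the level filter, 11 of them were lower in GKO and none higher, beside 3.75% and 5.53% of all genes, and the median log2 ratio was -0.54. Tnf, the cytokine TNF, stood at 1092 CPM in WT and 435.3 in GKO (-1.33, -1.42 to -1.24), and Il1a at 229.1 and 68.5 (-1.74, -1.95 to -1.53). Tnfaip2, a TNF-induced gene, stood at 291.4 and 85.6 CPM (-1.77, -1.95 to -1.58) and Nlrp3, the inflammasome sensor, at 91.2 and 35.8 (-1.35, -1.66 to -1.04). The lectin gene Clec4e had the largest difference, 59.1 and 9.46 CPM (-2.64), but 43.4% of its WT UMIs came from 1 cell. Nfkbia, the inhibitor IκBα and the most abundant gene of the list, stood at 2706 and 2002 CPM (-0.43, -0.48 to -0.39) and so was under 1.5-fold, as was Il1b at 1573 and 1110 CPM (-0.50, -0.57 to -0.44).

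The list's difference was spread over many cells. Thinned to 2000 UMIs each (all 194 WT cells and 446 of 449 GKO cells), a Tnf UMI was found in 55.2% of WT members (47.9 to 62.3%) and 33.9% of GKO members (29.5 to 38.5%). Without thinning these shares were 72.2% and 54.8%. In hormone-rich barcodes thinned the same way, which should lack the gene and had median depths of 19686.5 and 14470 UMIs, a Tnf UMI was found in 0.197% and 0.098%. The median member held 17.5 UMIs of the inflammatory list per 2000 in WT and 10 in GKO, and cells with at least 20 were 46.4% (39.2 to 53.7%) and 21.3% (17.6 to 25.4%).

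Chemokines went both ways. Of 16 tested, 5 were higher in GKO (Ccl7, Ccl8, Ccl12, Ccl24, Cxcl9) and 6 lower (Ccl3, Ccl4, Ccl5, Cxcl1, Cxcl2, Cxcl10), beside 5.53% and 3.75% of all genes. The higher group included the CCR2 ligand Ccl7, at 66.0 CPM in WT and 219.0 in GKO (1.73, 1.48 to 1.99), with 25.7% and 12.5% of its UMIs in 1 cell, and the eosinophil attractant Ccl24, at 35.7 and 87.4 (1.29, 0.94 to 1.66). For Ccl24, 1 cell held 25.6% of the WT UMIs and 1 cell 5.2% of the GKO UMIs. Cxcl9, induced by interferon-γ, stood at 97.6 and 217.9 CPM (1.16, 0.94 to 1.38), with 38.5% and 28.4% of its UMIs in 1 cell. The lower group held the most abundant chemokine, the macrophage inflammatory protein gene Ccl4, at 6708 and 3680 CPM (-0.87, -0.90 to -0.83), and the neutrophil attractant Cxcl2, at 4846 and 2333 (-1.05, -1.09 to -1.02). Cxcl1, of the same action, stood at 497.6 and 255.9 CPM (-0.96, -1.08 to -0.84). Ccl5, attracting T cells, stood at 377.6 and 225.1 CPM (-0.75, -0.88 to -0.61), with 27.8% of its WT UMIs and 29.5% of its GKO UMIs in 1 cell. The log2 ratio of Ccl5 was -2.04 (-2.325 to -1.755) among cells with a Mrc1 UMI and -0.01 (-0.16 to 0.15) among cells without.

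The 3 lower CXC chemokines carry NF-κB consensus motifs close to their starts. The 250 bases before each RefSeq start are shown (GRCm38.p6, 5′ to 3′ on the gene's strand), with every match of the consensus on either strand in capitals, overlapping matches joined. They were chosen after their values were seen.
Cxcl1, chr5:90890995-90891244, plus strand: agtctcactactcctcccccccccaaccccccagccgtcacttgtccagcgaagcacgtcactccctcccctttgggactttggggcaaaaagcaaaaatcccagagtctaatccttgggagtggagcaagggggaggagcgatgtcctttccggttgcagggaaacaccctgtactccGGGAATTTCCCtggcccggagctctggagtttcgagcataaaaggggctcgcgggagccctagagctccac
Cxcl2, chr5:90903649-90903898, plus strand: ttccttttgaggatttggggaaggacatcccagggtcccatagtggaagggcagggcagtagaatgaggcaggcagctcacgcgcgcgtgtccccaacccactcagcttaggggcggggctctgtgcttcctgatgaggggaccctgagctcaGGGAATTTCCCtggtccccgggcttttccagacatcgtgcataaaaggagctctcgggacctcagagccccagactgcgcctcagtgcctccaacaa
Cxcl10, chr5:92348890-92349139, minus strand: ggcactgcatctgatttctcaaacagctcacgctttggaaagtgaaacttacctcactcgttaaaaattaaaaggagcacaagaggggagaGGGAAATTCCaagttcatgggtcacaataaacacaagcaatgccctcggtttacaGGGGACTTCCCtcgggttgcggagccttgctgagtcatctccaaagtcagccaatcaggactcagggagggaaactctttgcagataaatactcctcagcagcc
In Cxcl1 the match lay 60 to 71 bases before the start, in Cxcl2 86 to 97 bases, and in Cxcl10 2 stretches lay between 93 and 159 bases. Of the 6 lower chemokines, 4 had a promoter in the RefSeq table, and 3 of the 4 held a match, beside 7.01% of all 27025 promoters of this length. In the inflammatory list 8 of 22 promoters held one, but only 2 of 9 among its genes that were lower in GKO, and in the CD206-type list 0 of 12. Matches were not counted over the chemokines as a whole, and the 6 were picked by their values. The 3 of 4 therefore cannot show whether a match goes with a lower level, which was not tested. A match describes the letters only.

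Interferon-stimulated genes were mixed, with 3 of 21 tested higher and 7 lower, beside 5.53% and 3.75% of all genes, and a median log2 ratio of 0.00. Isg15, a ubiquitin-like protein induced by type I interferon, stood at 649.3 CPM in WT and 333.0 in GKO (-0.96, -1.07 to -0.86), Ifit1 at 127.8 and 68.9 (-0.89, -1.13 to -0.65), and Cxcl10, the most abundant gene of the list, at 1702 and 908.4 (-0.91, -0.97 to -0.84). The GTPase gene Gbp2 went the other way, at 32.5 and 67.4 CPM (1.05, 0.67 to 1.44), with 18.4% of its GKO UMIs in 1 cell. Its log2 ratio was 1.63 among cells with a Mrc1 UMI and 0.11 (-0.43 to 0.66) among cells without.

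Metallothioneins and glucocorticoid-responsive genes did not move as one. Mt1, which binds zinc and copper, stood at 3954 CPM in WT and 1453 in GKO (-1.45, -1.49 to -1.40), and Mt2 at 260.3 and 84.0 (-1.63, -1.82 to -1.44). Fkbp5, a co-chaperone of the glucocorticoid receptor, stood at 102.2 and 42.1 CPM (-1.28, -1.57 to -0.99). By contrast Tsc22d3 (GILZ), another classic target of that receptor, stood at 314.8 and 583.3 CPM (0.89, 0.77 to 1.01), and Ddit4, an inhibitor of mTORC1, at 35.7 and 71.6 (1.00, 0.64 to 1.38). In all, 2 of 12 tested genes of the list were higher and 3 lower, beside 5.53% and 3.75% of all genes, with a median of 0.06. Among 26 tested immediate early and stress genes only Klf2, a factor that restrains macrophage activation, and Rhob, a small GTPase of endosomes, were higher, at 1466 and 2784 CPM (0.92, 0.87 to 0.98) and 692.8 and 1091 (0.66, 0.57 to 0.74), and none was lower, beside 5.53% and 3.75% of all genes. The heat shock gene Hspa1a, the most abundant of them, stood at 9263 and 9227 CPM (-0.01, -0.03 to 0.02).

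Antigen presentation and lysosomal genes differed little. Cd74, the MHC class II chaperone and the most abundant gene of its list, stood at 34155.0 CPM in WT and 32223.6 in GKO (-0.08, -0.10 to -0.07), and H2-Aa at 10510.2 and 10419.6 (-0.01, -0.04 to 0.01). Of 13 tested MHC class II genes 1 was higher, the transactivator Ciita (25.7 and 40.8 CPM, 0.67, 0.23 to 1.13), and 2 lower, the costimulator Cd40 (56.8 and 36.5, -0.64) and H2-Oa (28.9 and 17.3, -0.73), beside 5.53% and 3.75% of all genes. None of 16 tested MHC class I genes and none of 24 tested lysosomal genes passed 1.5-fold. B2m, the class I light chain, stood at 2247 and 2582 CPM (0.20) and Cst3, the protease inhibitor cystatin C, at 6892 and 7999 (0.21). C1qa stood at 5461 and 5706 CPM, C1qb at 5454 and 6053 and C1qc at 3225 and 3705, which chose the cells.

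Transcription factors and growth factor receptors each had 1 higher gene, 1 of 14 and 1 of 18 tested, a share near the 5.53% of all genes. Maf (c-Maf), a factor that maintains macrophage identity, stood at 209.4 CPM in WT and 384.6 in GKO (0.88, 0.73 to 1.03). Of 12 tested growth factors 3 were higher: Igf1 (70.6 and 125.9 CPM, 0.84, 0.58 to 1.10), Hbegf (25.2 and 44.6 CPM, 0.82, 0.39 to 1.28) and Gas6. Grn, progranulin, the most abundant, stood at 480.2 and 538.9 CPM (0.17). Tlr4, the receptor for lipopolysaccharide, was the higher gene of the receptor list (16.0 and 28.4 CPM, 0.82, 0.27 to 1.41).

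In lipid handling, Apoe was the most abundant gene, at 25640.3 CPM in WT and 28665.3 in GKO (0.16, 0.15 to 0.18). Hpgd, which breaks down prostaglandins, stood at 137.0 and 266.3 CPM (0.96, 0.77 to 1.15), and Ltc4s, leukotriene C4 synthase, at 70.1 and 106.1 (0.60, 0.33 to 0.87). Fabp5, a fatty acid carrier, stood at 850.4 and 397.0 CPM (-1.10, -1.19 to -1.004), but 1 cell held 44.3% of its WT UMIs and another 31.3% of its GKO UMIs. The direction of Fabp5 turned between cells with a Mrc1 UMI (2.12, 1.84 to 2.42) and cells without (-3.57, -3.79 to -3.36). These 2 higher genes and 1 lower were the calls among 17 tested, beside 5.53% and 3.75% of all genes.

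Of 8 tested cell cycle genes 4 were lower in GKO and none higher, beside 3.75% of all genes lower, and the median log2 ratio was -0.63. Mki67, which encodes the proliferation antigen Ki67, stood at 91.2 CPM in WT and 45.3 in GKO (-1.01, -1.30 to -0.72), Top2a at 53.2 and 25.5 (-1.06, -1.45 to -0.68) and Hmgb2 at 496.7 and 260.9 (-0.93, -1.05 to -0.81). Birc5 (29.8 and 18.2 CPM, -0.71) was the fourth, with 38.5% of its WT UMIs in 1 cell and a log2 ratio of 0.30 without barcodes that held other immune markers. Cells with at least 5 UMIs of this list per 2000 were 17 of 194 in WT (8.76%, 5.19 to 13.7%) and 16 of 446 in GKO (3.59%, 2.06 to 5.76%). The histone gene Hist1h2ap, made in S phase, stood at 103.1 and 26.1 CPM (-1.98, -2.32 to -1.65). In WT 1 cell held 21.6% of the UMIs of Mki67, 24.1% of those of Top2a and 21.3% of those of Hist1h2ap, and Mki67 had a log2 ratio of -1.81 among cells with and -0.39 among cells without a Mrc1 UMI.

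Outside the lists, the largest differences among genes with a mean of at least 50 CPM included several that rest on few cells. Fxyd2, a regulator of the sodium pump, had the largest higher ratio, 22.5 CPM in WT and 79.5 in GKO (1.83, 1.39 to 2.29). Spp1, osteopontin, stood at 55.4 and 164.5 CPM (1.57), with 30.6% of its GKO UMIs in 1 cell, and Mmp9, a gelatinase, at 27.0 and 78.9 (1.54, 1.14 to 1.97). Retnla, a marker of alternative activation, stood at 43.1 and 106.1 CPM (1.30), but 95.7% of its WT UMIs were in 1 cell and 38.4% of its GKO UMIs. Fcrls, an Fc receptor-related gene known from microglia, stood at 102.6 and 238.6 CPM (1.22, 1.01 to 1.43). On the lower side, the noncoding RNA Meg3 stood at 89.8 and 32.4 CPM (-1.47), with 40.8% of its WT UMIs in 1 cell, and E230013L22Rik at 82.5 and 32.4 (-1.35, -1.67 to -1.02). Meg3 also turned between cells with a Mrc1 UMI (1.29, 0.48 to 2.20) and cells without (-3.02, -3.62 to -2.46).

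The members were not uniform. Per 2000 UMIs, the 15 CD206-type genes together gave between 0 and 80 UMIs in single WT cells and between 0 and 89 in GKO cells. Sums of 0 to 2 were found in 62.9% of WT cells (55.7 to 69.7%) and 43.5% of GKO cells (38.8 to 48.2%), and sums of at least 10 in 18.0% (12.9 to 24.2%) and 36.5% (32.1 to 41.2%). Whether these sums form 1 range or separate types was not tested, and 7 WT cells and 24 GKO cells lay between 8 and 12. Cells with many of these transcripts more often had few of the 4 MHC class II transcripts H2-Aa, H2-Ab1, H2-Eb1 and Cd74. Under 20 MHC class II UMIs per 2000 were found in 12 of 35 WT cells and 29 of 163 GKO cells with a CD206-type sum of at least 10, against 3 of 159 and 5 of 283 of the rest. Across cells of 1 library, which share depth after thinning and compete for the same total, Spearman's rho of the sums was -0.34 over the 194 WT cells, and over the 446 GKO cells it was -0.65.

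**Figure D4:**
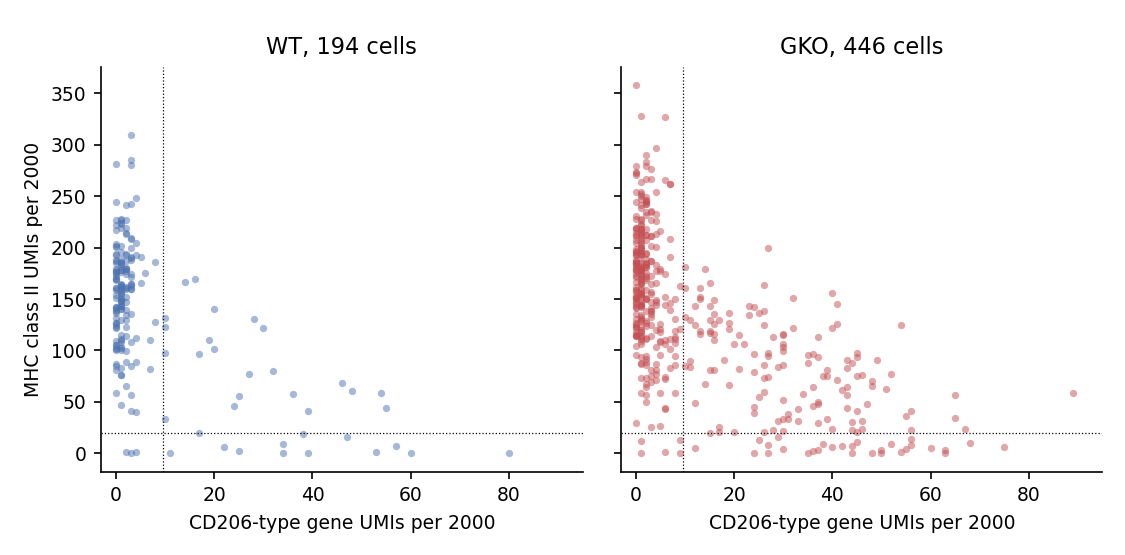
Each point is 1 C1q-positive macrophage thinned to 2000 UMIs, WT on the left and GKO on the right, with the UMIs of 15 CD206-type genes on the x axis and of 4 MHC class II genes on the y axis. Dotted lines stand at 10 CD206-type and 20 MHC class II UMIs, and a tail of cells runs to the lower right in both libraries, with 18.0% of WT and 36.5% of GKO cells at or beyond 10.

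Mrc1, itself among the genes summed, gave another split of the members, which differed from that by the sums. Cells with at least 1 Mrc1 UMI numbered 70 of 194 (36.1%, 29.3 to 43.3%) in the WT library. In the GKO library they numbered 257 of 449 (57.2%, 52.5 to 61.9%). Thinned to 2000 UMIs the shares were 23.2% (17.5 to 29.8%) and 38.8% (34.2 to 43.5%), beside 0.161% and 0.318% in hormone-rich barcodes. The median depth was 9686 UMIs in WT cells with and 10546.5 in those without a Mrc1 UMI, and 8598 and 9443 in GKO cells. Some genes of the list were nearly confined to cells with a Mrc1 UMI and others were not. In WT, F13a1 stood at 514.1 CPM with and 0 without a Mrc1 UMI, Cbr2 at 271.9 and 0, and Folr2 at 347.7 and 2.77. In GKO the same genes stood at 519.0 and 0.503, 343.8 and 2.01, and 496.5 and 6.03. Sepp1, in contrast, stood at 444.8 CPM in WT and 564.9 in GKO cells without a Mrc1 UMI. Among genes higher in cells without Mrc1 in both libraries were the elastase gene Mmp12 (120.4 with and 380.4 CPM without in WT, 53.1 and 241.2 in GKO) and Tmem119, known from microglia (51.4 and 99.8, 50.2 and 133.7), named after their values were seen.

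Mrc1 is itself a CD206-type gene, so splitting the cells by it narrows the ratios of Mrc1 and of genes found in the same cells by construction, and the values of this list within the split are a description. Among cells with a Mrc1 UMI 4 of 15 were higher and none lower, with a median log2 ratio of 0.44, beside 7.87% of 5009 genes tested higher and 5.93% lower in these cells. Mrc1 stood at 749.5 CPM in WT and 959.6 in GKO (0.36, 0.22 to 0.49), Pf4 at 1514 and 1937 (0.36, 0.26 to 0.45) and Lyve1 at 338.2 and 269.5 (-0.33, -0.54 to -0.11). The 4 higher genes were Ccl8 (320.6 and 677.0 CPM, 1.08, 0.88 to 1.28), Mgl2 (0.70, 0.50 to 0.91), Timd4 (0.65, 0.19 to 1.14) and Sepp1 (0.59, 0.49 to 0.68). Ccl7, a chemokine gene outside this list, was also past 1.5-fold (182.6 and 374.9 CPM, 1.04, 0.78 to 1.31). In cells without a Mrc1 UMI only 5 genes of the list passed the level filter, none was higher and 1, Ccl8, was lower (27.0 and 17.1 CPM, -0.66, -1.37 to 0.04), beside 4.51% of 4284 genes higher and 6.96% lower.

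The inflammatory genes differed on both sides of the split. Of those tested, 10 of 23 were lower and 2 higher among cells with Mrc1 (median -0.55, beside 5.93% and 7.87% of all genes) and 13 of 26 were lower and none higher among cells without (median -0.58, beside 6.96% and 4.51%). Tnf stood at 672.4 CPM in WT and 243.4 in GKO among cells with Mrc1 (-1.47, -1.64 to -1.29), and at 1307 and 671.5 among cells without (-0.96, -1.06 to -0.86). Mt1 had log2 ratios of -1.29 and -1.43, Fkbp5 of -1.495 and -1.25, and Tnfaip2 of -1.98 and -1.41 with and without Mrc1. Klf2 was 0.46 and 0.63, so past 1.5-fold only without. A Mrc1 UMI depends on chance at this depth, so cells that express the gene can fall on either side.

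**Figure D5:**
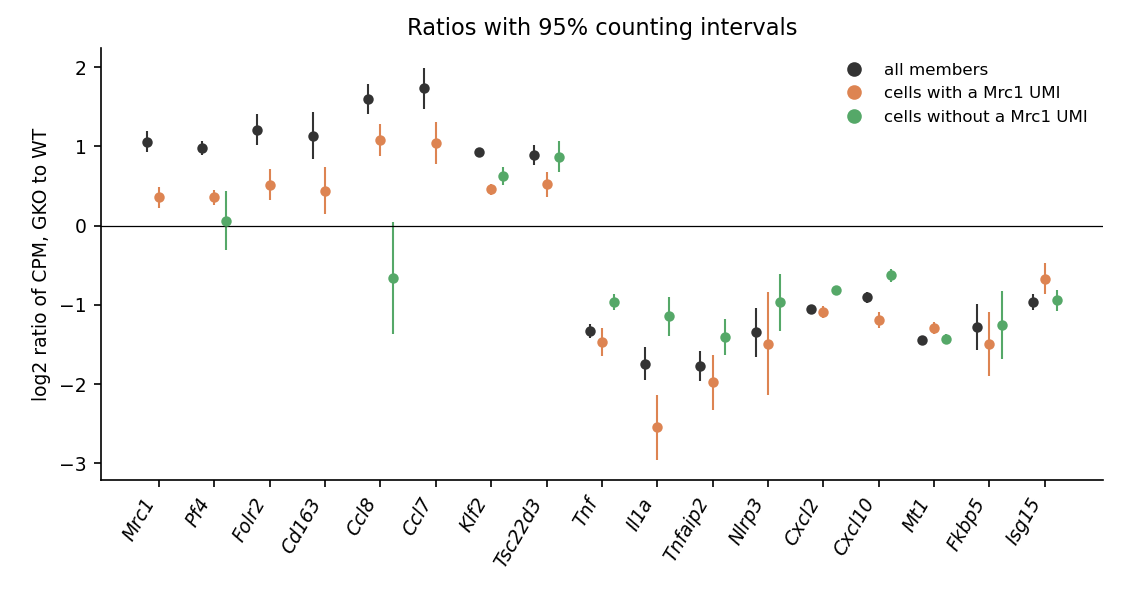
Log2 ratio of CPM, GKO to WT (y axis), of 17 genes over all members (black), cells with a Mrc1 UMI (orange) and cells without (green), with 95% counting intervals as bars, omitting green points where a library had under 10 UMIs. Mrc1, Pf4, Folr2 and Cd163 lie near 1 over all members and near 0.4 within cells with Mrc1, while Tnf to Isg15 lie under 0 in all sets.

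Other barcodes of the same libraries did not all move with the macrophages, and the difference between the ratios was not tested. Mt1 had a log2 ratio under 0 in each of the 4 other classes. It stood at 1257 and 522.6 CPM in 33 WT and 69 GKO C1q-low antigen-presenting barcodes (MHC class II at least 0.3%, C1q under 0.1%, no B cell UMI; -1.27, -1.45 to -1.09), 1025 and 833.2 in stromal-rich barcodes (-0.30, -0.37 to -0.23), 22.8 and 13.3 in endothelial-rich barcodes (-0.78, -1.31 to -0.28) and 257.8 and 165.0 in hormone-rich barcodes (-0.64, -0.67 to -0.61). Klf2 was higher in the C1q-low antigen-presenting barcodes (560.4 and 1088 CPM, 0.96, 0.75 to 1.17) but not in stromal-rich ones (880.2 and 704.0, -0.32, -0.40 to -0.25). Tnf in the C1q-low antigen-presenting barcodes stood at 65.5 CPM in WT and 146.0 in GKO (1.16, 0.55 to 1.81), on the other side of 0 from the macrophages.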

How the data were processed

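The deposited matrices hold raw UMI counts per gene and cell barcode, which the authors made with Cell Ranger 5.0.1 (per the file headers) on the mm10 build (per the submitters' processing notes), with reads down-sampled between libraries as needed. Free RNA had not been removed from these files. Viable single cells had been sorted, and no further doublet removal was applied in the main values. The 2 libraries (WT and GKO, each from 4 pooled mice) were compared with no test, since there is 1 library per group.

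Counts of the 643 members were summed per library and divided by their total. Genes with a mean of at least 20 CPM were compared. Log2 ratios carry exact 95% intervals and shares exact Clopper-Pearson intervals (SciPy 1.17.1, NumPy 2.4.6). Where 2 Ensembl IDs share a symbol, the one with more UMIs was used. Cells were thinned without replacement to 2000 UMIs. TMM factors came from edgeR 4.0.16, and doublet scores from Scanpy 1.11.5. Promoters came from RefSeq on GRCm38.p6, and gene coordinates from GENCODE vM21, matched by Ensembl ID.

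Members and gene lists were chosen with earlier results of these data known. Named genes are the markers, the most abundant gene of each list, up to 4 of its genes past 1.5-fold with the largest log2 ratio, the 10 largest differences in each direction at a mean of at least 50 CPM outside the lists of other cell types, hormones, ribosomal and sex-linked genes, and the ghrelin genes. Other genes were named after their values were seen. List symbols without a match (such as Clec7a and Cebpd) were not analysed here. Ribosomal protein genes (82 tested, 3 lower, median -0.03) and sex-linked genes were looked at as checks. A few genes that this rule names are not reported here.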

Additional observations from a re-analysis of the deposited data

Results flagged for a closer look

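Several genes that were higher or lower in the macrophages went past 1.5-fold in the opposite direction in another class of barcodes with at least 50 UMIs in each library. These pairs were picked because the 2 directions differ, each side is 1 library per genotype, and the difference was not tested. In the C1q-low antigen-presenting barcodes Ccl4 (log2 ratio 1.18) and Cxcl10 (1.17) were higher in GKO, against -0.87 and -0.91 in the macrophages. Ifit1 was higher in endothelial-rich (0.77) and hormone-rich (0.66) barcodes and Isg15 in endothelial-rich barcodes (0.59), against -0.89 and -0.96. In stromal-rich barcodes Fabp5 was higher (1.30, against -1.10) and Igf1 lower (-0.59, against 0.84).

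Barcodes outside the comparisons also carried C1q. In WT 25 and in GKO 43 kept barcodes had at least 0.3% C1q UMIs but were left out by another limit, 21 and 32 of them because hormone transcripts took 10% or more of their UMIs.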

How the results depend on the processing

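Depth limits the lower genes: a tested gene had as few as 21 UMIs in WT and 3 in GKO, and no replicate shows how much 2 pools of the same genotype would differ. No paired analysis was possible because each genotype has 1 library. The log2 ratio of the macrophage share was within its interval under 8 changes to the limits on cells, and was 0.62 with only barcodes under 10% hormone UMIs as denominator. With cells thinned to 2000 UMIs 679 genes were higher and 426 lower, with a level filter of 10 CPM 552 and 279, with 50 CPM 93 and 85, and at 2-fold 42 and 41; the thinned sums hold fewer counts. TMM gave 179 and 239. Of 62 named genes past 1.5-fold, 54 to 62 stayed past it the same way under each setting that kept the cells whole as a set. Without barcodes that held other immune markers Birc5 turned to 0.30. Among cells with a Mrc1 UMI alone 41 stayed, and Birc5 (0.15), Ccr2 (-0.12), Cd40 (0.17), Cd79b (0.25), Fabp5 (2.12) and Meg3 (1.29) turned. Among cells without one 39 stayed, and Ccl8 (-0.66), Cp (-0.46), Gas6 (-0.46), Ltc4s (-0.23), Mgl2 (-1.10), Mmp9 (-1.46), Slc40a1 (-0.46) and Timd4 (-1.37) turned. Several of these rest on few UMIs (Mmp9 on 2 and 1, Gas6 on 8 and 8), and in the Mrc1 split their 95% intervals span 0 except for Fabp5 and Meg3 with and Mgl2 and Timd4 without Mrc1. Causes were not tested.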
